A study of Homo sapiens with 5 samples.

Results

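Tubulin isotypes are the products of separate genes for alpha-, beta- and gamma-tubulin, and 10 of them (TUBA1A, TUBA1B, TUBA1C, TUBA4A, TUBB, TUBB2A, TUBB2B, TUBB3, TUBB6 and TUBG1) are described here by gene name, out of 18512 gene symbols in the deposited table. RNA with poly(A) tails was sequenced from BT474, an established HER2-amplified luminal breast cancer cell line. Persister cells (3 libraries) were the cells left after 9 days in 2 µM lapatinib, a kinase inhibitor of HER2 and EGFR, with drug and medium renewed every 3 days from a starting confluence of 75%. Parental cells (2 libraries) were grown in parallel without lapatinib, and both groups carried 0.01% DMSO. The submitters call the libraries biological replicates of this single line. The table gives 1 pooled FPKM per gene and group (fragments per kilobase of transcript, scaled to library size, a level corrected for length) and the q-value of the authors' own comparison. Read counts and single libraries are not part of it, so the depth is unknown and no SD or n can stand beside a level. With no shorter exposure and no drug-free recovery, effects of the drug, of growth arrest and of survival cannot be told apart.

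Alpha- and beta-tubulin pair into the dimers that polymerize into microtubules, the tracks of intracellular transport and the fibres of the mitotic spindle. Gamma-tubulin forms the ring-shaped template from which microtubules grow at centrosomes. Isotypes of a class differ mostly in their acidic C-terminal tails, where enzymes add and remove tyrosine and glutamate. Cells also adjust tubulin mRNA stability to the amount of free tubulin, through recognition of the first residues of the growing tubulin chain on the ribosome by the factor TTC5.

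The beginning of the coding sequence is shown because that recognition acts there. The 30 bases from the start codon are from GENCODE 29 transcripts (GRCh38), and capitals mark the first 12 bases. The genes lie on chromosome 12 (TUBA1A, TUBA1B, TUBA1C), chromosome 2 (TUBA4A), chromosome 6 (TUBB), chromosome 18 (TUBB6) and chromosome 17 (TUBG1).
TUBA1A: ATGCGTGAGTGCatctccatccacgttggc
TUBA1B: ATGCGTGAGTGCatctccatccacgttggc
TUBA1C: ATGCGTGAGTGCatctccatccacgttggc
TUBA4A: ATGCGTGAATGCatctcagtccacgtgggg
TUBB: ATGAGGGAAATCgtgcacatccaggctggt
TUBB6: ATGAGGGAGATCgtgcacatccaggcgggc
TUBG1: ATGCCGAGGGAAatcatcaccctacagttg
TUBA1A, TUBA1B and TUBA1C were identical over all 30 bases, and TUBG1 began differently from both other classes.

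The other end of the coding sequence is shown for 4 beta-tubulin genes because it encodes the tail in which isotypes differ. These are the last 60 coding bases, stop codon included, of genes on chromosomes 6 (TUBB, TUBB2A, TUBB2B) and 16 (TUBB3). Capitals mark the bases in which TUBB2A and TUBB2B differ from each other.
TUBB: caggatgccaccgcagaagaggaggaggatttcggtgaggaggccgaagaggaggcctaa
TUBB2A: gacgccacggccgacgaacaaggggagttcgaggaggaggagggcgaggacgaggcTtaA
TUBB2B: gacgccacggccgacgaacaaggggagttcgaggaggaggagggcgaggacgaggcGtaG
TUBB3: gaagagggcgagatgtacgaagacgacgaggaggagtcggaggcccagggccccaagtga
TUBB2A and TUBB2B differed in 2 of the 60 bases, while TUBB and TUBB3 had tails of their own.

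Alpha- and beta-tubulin mRNA each took a smaller share of the summed FPKM of all genes in persister cells than in parental cells. A gene was called when the q-value was under 0.05, among the 13617 genes the authors' test covered (q below 1). All 10 members were covered. By the q-values of the authors' deposited table, 8 of them were called lower in persister cells, 1 was called higher (TUBB6) and 1 was not called (TUBA4A). Across all tested genes, 69.9% were called, 39.0% lower and 30.9% higher, so a call alone was common. A fall of at least 1 on the log2(FPKM + 1) scale, on which all differences below are given, was reached by 6 of the 10 members, against 6.01% of all tested genes, and a rise of that size by 0 members, against 2.98% of all tested genes. With each group scaled to the same FPKM sum, 3 members still fell by at least 1 (TUBA1B, TUBA1C and TUBG1), against 4.50% of all tested genes. Scaling changed the differences only and the authors' q-values were kept, so directions after scaling are not tested here or below. The median difference was -1.08 over the members and -0.04 over all tested genes. Adding 1 makes the changes of weakly expressed genes look smaller than they are. Without scaling, a gene under 1 FPKM in both groups cannot change by 1 on this scale. Of the 13617 tested genes, 10160 had at least 1 FPKM in both groups, as all 10 members did. The shares of 6.01% and 2.98% thus include weak genes unlike the members, and shares over expressed genes alone were not computed. FPKM is a relative level but not an exact share, since all genes summed to 260213 FPKM in persister cells and 333324 FPKM in parental cells. Fewer cells with a transcript cannot be told apart from less of it per cell.

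**Figure D1:**
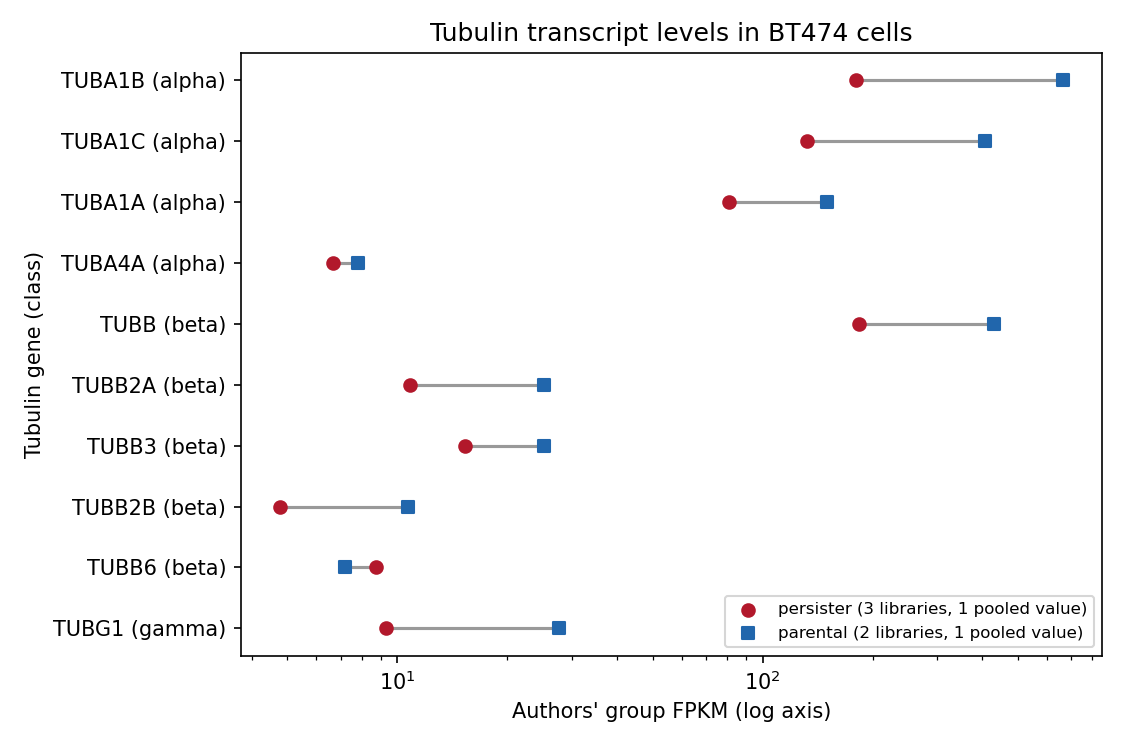
Authors' pooled FPKM (log axis) of the 10 tubulin genes, ordered by class and by parental level; circles are persister and squares parental cells, with 1 value per group and no error bars because values per library were not analysed here. The persister value lies left of the parental value for 9 genes and right of it for TUBB6 alone (8.72 against 7.19 FPKM).

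Among the alpha-tubulins, the broadly expressed gene TUBA1B fell furthest. It stood at 180 FPKM in persister cells, against 666 FPKM in parental cells, a difference of -1.88, and the authors' deposited table gave it a q of 0. This moved it to rank 169 of all gene symbols by level in persister cells, against rank 36 in parental cells.

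TUBA1C, also expressed in most tissues, stood at 132 FPKM in persister cells and 407 FPKM in parental cells, a difference of -1.61 (q of 0 in the authors' deposited table). TUBA1A, best known as the main alpha-tubulin of developing neurons, stood at 81.1 FPKM in persister cells and 150 FPKM in parental cells, a difference of -0.88 (q of 0 in the authors' deposited table). All of these genes of the chromosome 12 cluster thus fell, and the level of TUBA1A in persister cells was 53.9% of that in parental cells, against 27.0% for TUBA1B and 32.6% for TUBA1C.

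TUBA4A, an alpha-tubulin prominent in platelets and muscle, did not pass. It stood at 6.65 FPKM in persister cells and 7.79 FPKM in parental cells, with q = 0.215 in the authors' deposited table and a difference of -0.20, which became 0.12 once each group was scaled to the same FPKM sum.

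TUBB, the major beta-tubulin of most cells, stood at 183 FPKM in persister cells and 432 FPKM in parental cells, a difference of -1.23 (q of 0 in the authors' deposited table). It was the member with the highest level in persister cells, whereas TUBA1B was highest in parental cells. The gene symbol stood on 2 rows with the same transcript identifier, and the other row was listed at 0 in both groups, so summing the rows changed nothing.

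TUBB2A and TUBB2B, the near-identical neighbours whose ends are given above, fell together. TUBB2A stood at 10.8 FPKM in persister cells and 25.2 FPKM in parental cells, a difference of -1.15. TUBB2B stood at 4.77 FPKM in persister cells and 10.7 FPKM in parental cells, a difference of -1.02. The authors' deposited table gave both a q of 0. The ratio of TUBB2A to TUBB2B was 2.27 in persister cells and 2.35 in parental cells.

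TUBB3, the neuronal beta-tubulin that is also studied as a marker of taxane resistance in carcinomas, was detected in both groups. Its level was 15.3 FPKM in persister cells and 25.2 FPKM in parental cells, a difference of -0.68 (q = 1.20e-15 in the authors' deposited table). Of 10 neuronal markers, 7 were under 0.1 FPKM in both groups, 5 of them listed at 0 in both (NEFL, NEFM, ELAVL4, STMN2 and GAP43). The list summed to 1.19 FPKM in persister cells and 1.62 FPKM in parental cells. Most of that came from SYP, at 0.866 FPKM in persister cells and 1.27 FPKM in parental cells. SNAP25 and SYT1 were the others that reached 0.1 FPKM in a group. A listed 0 can be a failed estimate in this table, since ERBB2, the amplified gene of this line, is also listed at 0 in both groups, so those 5 markers show only how they are listed.

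TUBB6, a beta-tubulin with wide but low expression, was the single member called higher. It stood at 8.72 FPKM in persister cells and 7.19 FPKM in parental cells, a difference of 0.25 (q = 0.0114 in the authors' deposited table). A threshold of 0.01, which 26.9% of all tested genes passed as higher and 35.2% as lower, would not have called it. With each group scaled to the same FPKM sum, which moved differences upward in general, that of TUBB6 was 0.61, with q not recomputed. The other 4 beta members all fell, by between 0.68 (TUBB3) and 1.23 (TUBB) on the log2 scale.

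TUBG1, the main gamma-tubulin of dividing cells, stood at 9.33 FPKM in persister cells and 27.7 FPKM in parental cells, a difference of -1.48 (q of 0 in the authors' deposited table). Its paralogue TUBG2 stood at 6.54 FPKM in persister cells and 9.71 FPKM in parental cells, a difference of -0.51 (q = 9.27e-08 in the authors' deposited table). The ratio of TUBG1 to TUBG2 was 1.43 in persister cells, against 2.85 in parental cells. The lead of TUBG1 over TUBG2 was smaller in persister cells, although the ratio itself could not be tested.

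Members with high levels did not all fall alike. The 4 members at 100 FPKM or more in parental cells differed by -1.88 to -0.88, and the 6 below that level by -1.48 to 0.25. These ranges overlapped, and the members include both a strong faller of low level (TUBG1) and a weaker faller of high level (TUBA1A). The plot of levels shows the order of the 10 genes: the top 4 were TUBB, TUBA1B, TUBA1C and TUBA1A in persister cells, and TUBA1B, TUBB, TUBA1C and TUBA1A in parental cells. In persister cells TUBB and TUBA1B stood close together, at 183 and 180 FPKM, and without values per library their order cannot be tested. TUBB3 held place 5 in persister cells and place 7 in parental cells, while TUBG1 held place 7 in persister cells and place 5 in parental cells. In parental cells TUBB2A (place 6) and TUBB3 both stood at 25.2 FPKM, so their order there is close to a tie.

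The total of each class fell with its leading genes. The 4 alpha members summed to 400.1 FPKM in persister cells and 1231 FPKM in parental cells, so that the persister sum was 32.5% of the parental sum. The 5 beta members summed to 223 FPKM in persister cells and 500 FPKM in parental cells, which is 44.6%. TUBB4B, a widespread beta-tubulin outside the list of 10, added 140 FPKM in persister cells and 286 FPKM in parental cells. With every alpha and beta gene of the table counted, alpha over beta FPKM was 1.10 in persister cells, against 1.56 in parental cells. The alpha sum was thus closer to the beta sum in persister cells. These ratios carry no error, since they rest on 1 value per group.

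The makeup of the alpha class differed between the groups, with less TUBA1B and more TUBA1A in persister cells. TUBA1B held 45.0% of the alpha members' FPKM in persister cells and 54.1% in parental cells, while TUBA1A held 20.3% in persister cells and 12.2% in parental cells. TUBA1C kept about the same share, 33.1% in persister cells and 33.0% in parental cells. TUBA4A, the alpha-tubulin known for having no encoded C-terminal tyrosine, held 1.66% in persister cells and 0.632% in parental cells. The ratio of TUBA1B to TUBA1A was 2.22 in persister cells, against 4.43 in parental cells.

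Within the beta class TUBB led in both groups. It held 82.2% of the beta members' FPKM in persister cells and 86.3% in parental cells. TUBB6 held 3.91% in persister cells and 1.44% in parental cells, and TUBB3 held 6.88% in persister cells and 5.04% in parental cells. TUBB2A, at 4.86% in persister cells and 5.04% in parental cells, and TUBB2B, at 2.14% in persister cells and 2.15% in parental cells, differed by -0.185 and -0.00705 percentage points. With all 9 beta genes of the table counted, TUBB held 50.05% in persister cells and 54.5% in parental cells, and TUBB4B held 38.2% in persister cells and 36.1% in parental cells. The TUBB share was lower in persister cells with either set of genes, and no test of shares was possible.

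**Figure D2:**
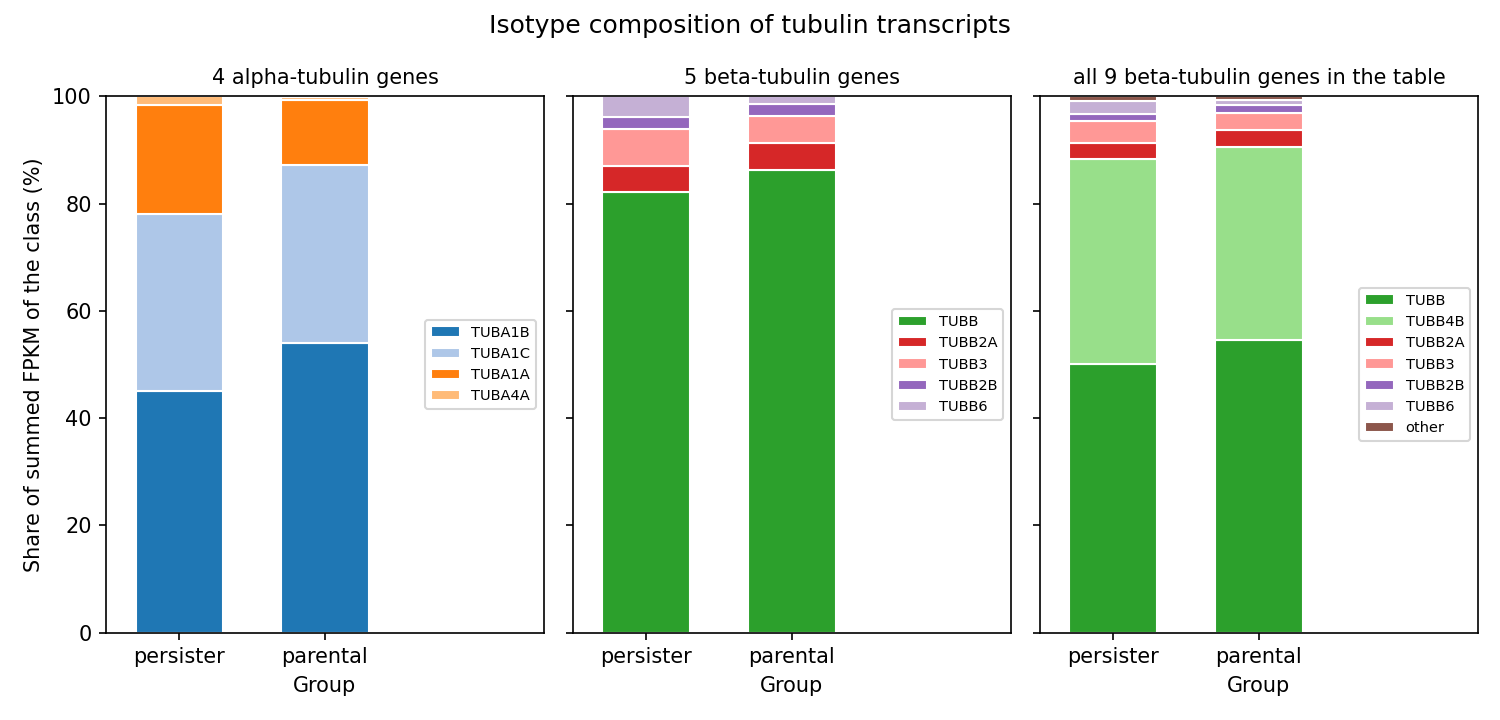
Share of each isotype (%) in the summed FPKM of its class, persister cells left and parental cells right, for the 4 alpha members, the 5 beta members and all 9 beta-tubulin genes of the table (TUBB1, TUBB4A and TUBB8 are joined as other). TUBA1B takes 45.0% of the alpha sum in persister cells and 54.1% in parental cells, and TUBB remains the largest beta segment in each panel.

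How far reads could be assigned to 1 isotype limits these shares. In GENCODE 29, coding sequences of alpha members were 84.4% to 97.2% identical to each other, and those of the beta members and TUBB4B 80.9% to 98.1%. Alpha and beta sequences were 51.9% to 54.0% identical to each other. TUBB2A and TUBB2B were 98.1% identical and TUBA1A and TUBA1B 97.2%.

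Windows of 50 bases, a length chosen here since the sources used name no read length, were then compared with all other transcripts. Of the windows of TUBA1B, 56.6% also occurred in another tubulin gene. The share was 51.7% for TUBA1A, 25.1% for TUBA1C, 60.3% for TUBB2A, 47.3% for TUBB2B and 29.1% for TUBG1 (all with TUBG2). It was 0 for TUBB and 0.993% for TUBB6. The shift between TUBA1A and TUBA1B and the constant ratio of TUBB2A to TUBB2B therefore rest on genes with long stretches in common, and the sources used do not say how the authors divided reads from them. TUBB and TUBB6 had few or no windows in common with other tubulin genes.

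Overlapping genes add to this, because the library kit did not keep strand. TUBA1A and TUBA1C overlap each other on opposite strands in GENCODE 29. In RefSeq, TUBA1A starts at 49189080 on the minus strand and TUBA1C at 49227926 or later on the plus strand, so those models run apart. Of the windows of TUBA1A, 35.3% also occurred in TUBA1C, which touches the shares of both. That value counts both strands and includes their similar coding sequences (95.9% identical), so it does not measure the overlap. TUBB overlaps an antisense gene, as do TUBA1B, TUBA1C and TUBB3. TUBB6 overlaps AFG3L2 on the other strand, TUBA4A overlaps STK16, TUBB2B overlaps PSMG4 and TUBG1 overlaps RETREG3. These overlaps are of whole gene spans, and without strand only reads from stretches shared by the transcripts cannot be told apart. TUBA4A shared 27.4% of its windows with STK16. For TUBB6 the share over all genes was 0.993%, the same as with tubulin genes alone, so AFG3L2 added none. For TUBG1 it was 30.3% over all genes, against 29.1% with tubulin genes, and for TUBB2B 52.2% against 47.3%. Counted over all genes, 87.1% of the windows of TUBA1B and 30.8% of those of TUBB occurred elsewhere, most often in the antisense partner. For TUBB3, 89.4% of the windows lay in AC092143.1, a readthrough gene on the same strand, and the levels of both genes cannot be told apart there.

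**Figure D3:**
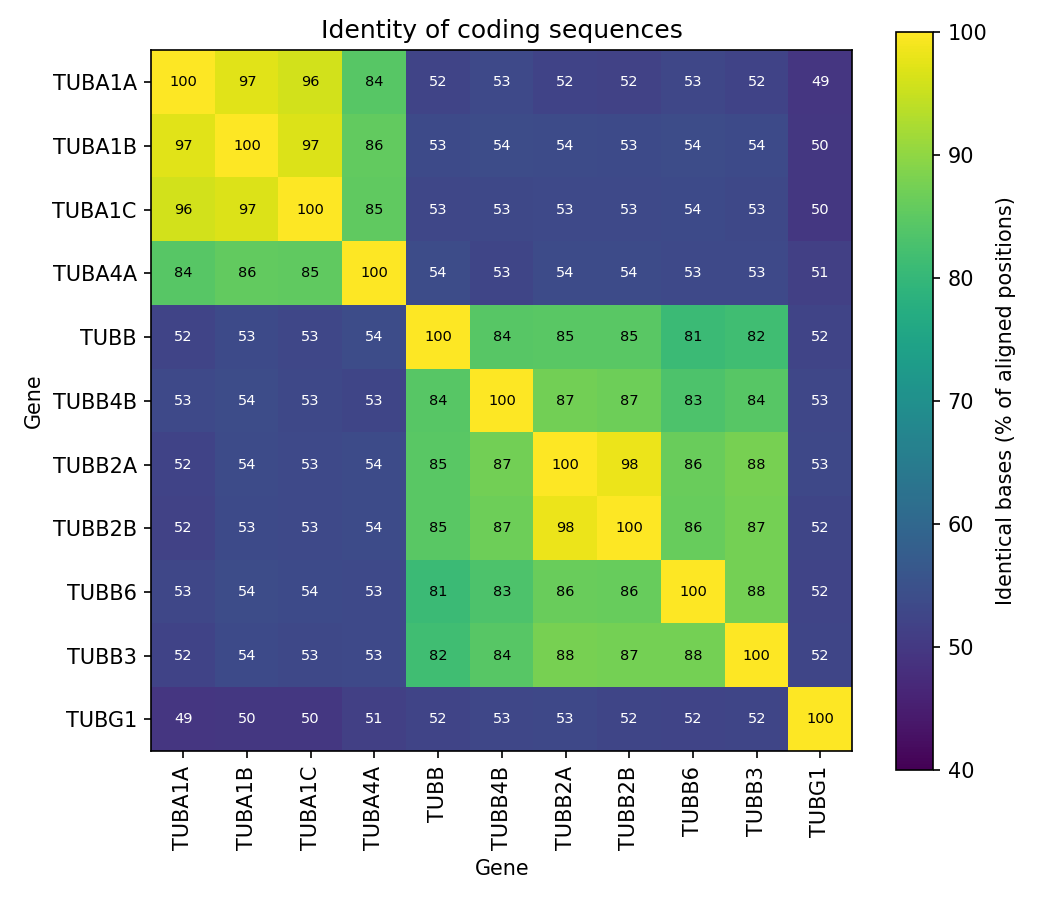
Identity (% of aligned positions, colour scale and printed whole numbers) between the coding sequences of the 10 members and TUBB4B, from GENCODE 29 transcripts. The block of TUBA1A, TUBA1B and TUBA1C and the pair TUBB2A and TUBB2B stand out at 95.9% or more, and TUBG1 reaches at most 53.0% with any other gene.

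Other tubulin genes were called lower about as often as genes in general. Of 11 tested genes outside the list of 10, the authors' deposited table had 5 lower (45.5%) and 2 higher (18.2%) at q under 0.05 (median -0.02), against 39.0% lower and 30.9% higher over all tested genes. TUBB4B was 140 FPKM in persister cells and 286 FPKM in parental cells (difference -1.03), and TUBB4A, the beta-tubulin of oligodendrocytes, 1.90 FPKM in persister cells and 3.95 FPKM in parental cells (difference -0.77). TUBD1, the delta-tubulin of centrioles, was 16.4 FPKM in persister cells and 23.4 FPKM in parental cells (difference -0.49), and TUBB8, known from oocytes, 1.05 FPKM in persister cells and 1.56 FPKM in parental cells. TUBA8 and TUBAL3 were called higher, at 1.06 FPKM in persister cells and 0.539 FPKM in parental cells for TUBA8, and 1.23 FPKM in persister cells and 0.721 FPKM in parental cells for TUBAL3. TUBE1, the epsilon-tubulin, had 5.37 FPKM in persister cells and 4.60 FPKM in parental cells and was not called (q = 0.0591 in the authors' deposited table). The genes that fell by at least 1 among all tubulin genes were 6 of the 10 members and TUBB4B, and TUBA1B, TUBA1C and TUBG1 alone after scaling to the same FPKM sum, when TUBB4B was at -0.67.

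Most genes that fold tubulin fell. New tubulin chains pass from prefoldin to the chaperonin TRiC (TCP1 and the CCT subunits) and then to the tubulin cofactors, which assemble the dimer. By the authors' deposited table, 19 of 21 tested genes of this route fell and 2 rose (median -0.69), beside 39.0% lower and 30.9% higher over all tested genes. All 8 chaperonin genes fell, by between 0.69 and 1.02 on the log2 scale. CCT5 stood at 80.8 FPKM in persister cells and 165 FPKM in parental cells, TCP1 at 34.5 FPKM in persister cells and 67.9 FPKM in parental cells, and CCT6A at 108 FPKM in persister cells and 205 FPKM in parental cells. All 6 prefoldin genes fell as well, with PFDN2 at 45.6 FPKM in persister cells and 89.0 FPKM in parental cells. The 2 that rose were TBCC, at 21.8 FPKM in persister cells and 17.7 FPKM in parental cells, and TBCEL, at 4.60 FPKM in persister cells and 2.55 FPKM in parental cells, both named after their values were seen. With each group scaled to the same FPKM sum, which moved the median over genes of at least 1 FPKM to 0.22 where it was -0.12 unscaled, 16 of the 21 were lower and 5 higher. The 3 genes that turned were the prefoldins PFDN1, PFDN5 and PFDN6, so 3 of the 6 prefoldin genes were then higher, while all 8 chaperonin genes stayed lower. The chaperonin and prefoldin also fold other proteins, actin among them.

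Of 14 genes of the gamma-tubulin ring complex and its anchors, 11 fell (78.6%) and 3 rose (21.4%) by the authors' deposited table (median -0.33), against 39.0% lower and 30.9% higher over all tested genes. After scaling to the same FPKM sum, without new q-values, there were 7 in each direction. MZT1, a small protein of that complex, fell furthest, at 6.33 FPKM in persister cells and 22.6 FPKM in parental cells (difference -1.68). NEDD1, which attaches the complex to the centrosome and spindle, stood at 4.85 FPKM in persister cells and 9.11 FPKM in parental cells. MZT2B stood at 60.5 FPKM in persister cells and 102 FPKM in parental cells, and MZT2A at 39.4 FPKM in persister cells and 65.0 FPKM in parental cells. The core subunits TUBGCP2 to TUBGCP5 had differences of -0.42 to -0.23, all called lower, although TUBGCP2 and TUBGCP3 turned higher after that scaling, and TUBGCP6 was higher, at 8.24 FPKM in persister cells and 4.85 FPKM in parental cells. These subunits were named after their values were seen.

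Enzymes that modify tubulin showed no common direction. By the authors' deposited table, 6 of 19 tested fell (31.6%), 4 rose (21.1%) and 9 were not called (median -0.04), against 39.0% lower and 30.9% higher over all tested genes. After scaling to the same FPKM sum, 5 of the genes with q under 0.05 were lower and 5 higher, with q not recomputed. TTLL4, a glutamylase of the tails, stood at 2.47 FPKM in persister cells and 5.14 FPKM in parental cells, and TPGS2, a subunit of a polyglutamylase complex, at 22.5 FPKM in persister cells and 35.2 FPKM in parental cells. TTLL12 was 23.8 FPKM in persister cells and 33.5 FPKM in parental cells. VASH1, a carboxypeptidase that removes the terminal tyrosine, was called higher, at 2.49 FPKM in persister cells and 1.43 FPKM in parental cells. TTL, the ligase that puts the tyrosine back and was named after its value was seen, had 10.8 FPKM in persister cells and 10.03 FPKM in parental cells (q = 0.254 in the authors' deposited table).

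Microtubule-associated, end-binding and severing proteins went both ways. By the authors' deposited table, 12 of 22 tested genes (54.5%) rose, 9 (40.9%) fell and the median was 0.17, against 30.9% higher and 39.0% lower over all tested genes. After scaling to the same FPKM sum, without new q-values, 15 were higher and 6 lower. MAPT, which encodes tau, was 6.61 FPKM in persister cells and 1.92 FPKM in parental cells, a difference of 1.38. STMN1, the dimer-sequestering protein stathmin, was 54.1 FPKM in persister cells and 141 FPKM in parental cells, a difference of -1.37. The severing-related gene FIGNL1 was 5.67 FPKM in persister cells and 16.4 FPKM in parental cells (difference -1.38), and the polymerase CKAP5 16.1 FPKM in persister cells and 31.3 FPKM in parental cells (difference -0.92). TTC5, the factor that recognizes new tubulin chains, was listed here as well and is named after its value was seen. It stood at 7.91 FPKM in persister cells and 6.70 FPKM in parental cells, a difference of 0.21 (q = 0.0321 in the authors' deposited table). MAP4 had no estimate in the authors' test and was left out of the count.

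**Figure D4:**
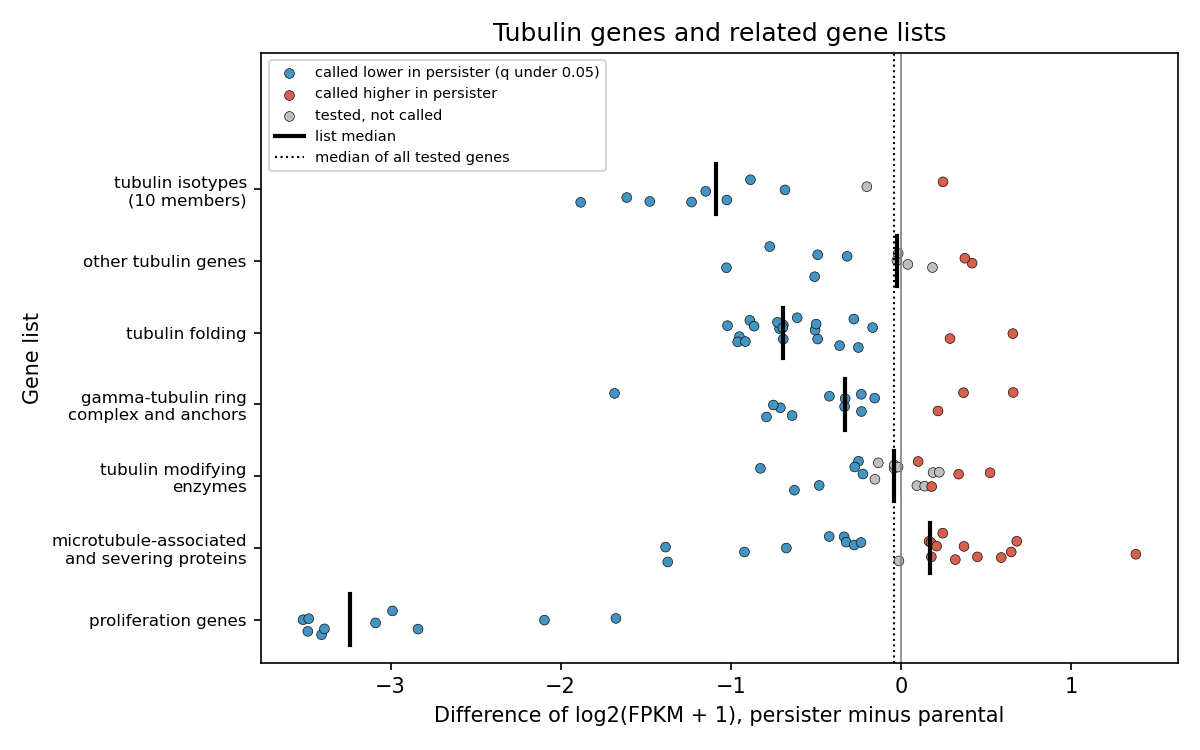
Difference of log2(FPKM + 1), persister minus parental, for each tested gene (points), by gene list; colour gives the call, thick bars the list medians and the dotted line the median of all tested genes (-0.04). The median of the 10 tubulin isotypes (-1.08) lies below those of the other microtubule lists (-0.69 to 0.17) and above that of 10 proliferation genes (-3.24).

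Proliferation genes were lower in persister cells. By the authors' deposited table, all 10 on a list of mitotic and replication genes fell (median -3.24), against 39.0% lower over all tested genes. All 10 fell by at least 1, against 6.01% of all tested genes. CCNB1 (cyclin B1) stood at 5.31 FPKM in persister cells and 71.1 FPKM in parental cells, and CDK1 at 3.72 FPKM in persister cells and 51.9 FPKM in parental cells. PLK1 stood at 2.25 FPKM in persister cells and 33.5 FPKM in parental cells, and the spindle factor TPX2 at 5.77 FPKM in persister cells and 74.6 FPKM in parental cells. Their part in the fall of the tubulin genes was not tested. The smallest change on that list was -1.67 (MCM2), and TUBA1B alone among the 10 tubulin genes fell further.

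The upstream sequences are shown for the gene with the largest fall in each class and for TUBA1A, the closest relative of TUBA1B by coding identity. RefSeq promoters (GRCh38.p14) were found for all 10 members, and the 250 bases before a transcription start were searched on both strands for CCAAT, a motif common in cell cycle promoters, and for TTTGAA and TTTAAA, 2 forms of the cell cycle homology region. The motifs do not overlap each other in these sequences. Capitals mark matches. Each sequence is on the strand of its gene: chr12:49189081-49189330 (minus, TUBA1A), chr12:49131396-49131645 (minus, TUBA1B), chr6:30720102-30720351 (plus, TUBB, the first of 2 starts) and chr17:42609433-42609682 (plus, TUBG1).
TUBA1A: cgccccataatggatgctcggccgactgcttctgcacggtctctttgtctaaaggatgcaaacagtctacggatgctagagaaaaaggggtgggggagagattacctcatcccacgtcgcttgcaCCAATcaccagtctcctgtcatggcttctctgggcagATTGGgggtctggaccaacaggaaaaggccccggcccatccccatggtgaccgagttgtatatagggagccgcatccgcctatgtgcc
TUBA1B: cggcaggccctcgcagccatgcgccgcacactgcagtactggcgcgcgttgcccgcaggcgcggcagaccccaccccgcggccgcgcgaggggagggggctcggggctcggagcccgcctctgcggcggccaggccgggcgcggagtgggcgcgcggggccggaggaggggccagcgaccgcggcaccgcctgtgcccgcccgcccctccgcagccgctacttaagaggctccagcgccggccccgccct
TUBB: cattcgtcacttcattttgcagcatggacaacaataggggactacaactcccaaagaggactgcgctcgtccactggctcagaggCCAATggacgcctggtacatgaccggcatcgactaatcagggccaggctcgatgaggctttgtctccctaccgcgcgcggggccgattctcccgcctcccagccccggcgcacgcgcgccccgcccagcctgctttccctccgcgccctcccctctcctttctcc
TUBG1: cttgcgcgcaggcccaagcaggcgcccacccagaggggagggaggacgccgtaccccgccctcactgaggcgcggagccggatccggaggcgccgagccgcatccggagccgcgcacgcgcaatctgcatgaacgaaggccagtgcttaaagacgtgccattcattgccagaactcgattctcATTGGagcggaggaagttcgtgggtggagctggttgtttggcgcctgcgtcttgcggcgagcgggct
TUBA1A held CCAAT on both strands, TUBB on the forward strand 165 bases before the start, and TUBG1 on the reverse strand 67 bases before it. TUBA1B, which fell furthest, held none of the 3 motifs in this window. Over the 15 annotated starts of the members, 9 windows (60%) from 7 genes held CCAAT. The share was 32.0% of all 35116 promoters in the table and 32.5% of the promoters of tested genes. Of the 3 TUBA1C windows, 2 overlap and hold the same site. TTTGAA occurred in 2 windows (13.3%), both of TUBA1C, against 13.3% of all promoters and 9.03% of those of tested genes. TTTAAA occurred in 0 windows, against 11.3% of all promoters and 8.22% of those of tested genes. TUBB6, which was called higher, held CCAAT before 1 of its 2 starts, as did TUBB. A match describes letters and not binding, so these counts say nothing of what moved the genes.

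The labelled cell type was checked on its markers. All 9 luminal epithelial markers were at 12.35 FPKM or more in both groups, among them KRT8, KRT18, KRT19 and GATA3. Of 6 fibroblast markers 5, of 5 immune markers 3 and of 4 endothelial markers 2 were under 0.1 FPKM in both groups, and the exceptions reached at most 13.4 FPKM (COL1A1). The amplified gene ERBB2 was listed at 0 in both groups, so its level could not be checked, while of its amplicon neighbours GRB7 stood at 323 FPKM in persister cells and 155 FPKM in parental cells, and STARD3 at 227 FPKM in persister cells and 273 FPKM in parental cells.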

How the data were processed

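Libraries came from 3 persister and 2 parental BT474 cultures and were prepared without strand information, per the labels' protocols. Build hg18, Cuffdiff 2.0.2, Cufflinks, TopHat2 2.0.6 and CASAVA 1.8 were used, per the submitters' processing notes. The deposited table (18803 rows) holds 1 FPKM value per gene and group, pooled by the authors, per the file headers. Beside it the authors give the q-value of their own comparison, 0 in 2712 rows, without naming how p-values were adjusted. Their deposited fold change, a ratio, served only to find 145 rows without an estimate (fold 1 and q 1 although the FPKM differed by over 0.6%). Scaling between libraries and the total depth are not given in the sources used here.

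No test across libraries was possible, so calls are the authors' q-values under 0.05. After scaling, these q-values were kept and not recomputed. Differences are log2(FPKM + 1), persister minus parental. Of symbols on several rows (269), only the most expressed row (mean FPKM of both groups) was kept, and 25 of 26 spreadsheet dates were given a symbol through RefSeq accessions. Transcripts are those of GENCODE 29 that match the table's accessions, with the longest coding sequence, aligned globally with Biopython 1.88. The table gives no positions, and its build differs from that of the sequences. Calculations used Python 3.11.15 with pandas 2.3.3 and were tested on simulated data. Named genes are the 10 members, up to 4 called genes per list with the largest difference, and other tubulin genes above 1 FPKM. Members and lists were chosen with earlier results of these data known. No likeness of pattern to other genes is given, because 2 values per gene make no profile. The coding ends of the alpha-tubulin genes are not reported here.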

Additional observations from a re-analysis of the deposited data

How the results depend on the processing

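Of 191 values recomputed under other settings, 150 were labelled the same. For counts this allowed a tolerance, so that 19 and 16 folding genes lower were labelled the same. For single members it meant the same sign and the same call or lack of one. Some settings, such as summing the rows of a symbol, could not change the members' values, so the 150 does not measure how firm the results are. The 8 falls among the members numbered 8 with a pseudocount of 0.1, a minimum of 1 FPKM, centring on the median of genes with at least 1 FPKM in both groups, scaling to an equal FPKM sum or q under 0.01. Apart from q under 0.01, these settings could not change the count, so it is no test of the calls. The q-values were kept, all members exceeded 1 FPKM, and a pseudocount leaves the sign as it is. The smallest called fall (0.68, TUBB3) exceeded the shifts of centring (0.12) and scaling (0.36). With a difference of at least 1 demanded, 6 remained, and the count called higher was 0 there and at q under 0.01, since TUBB6 was lost. Scaling and that minimum together, added after seeing the data, left 3 members lower and 0 higher, and 0 other tubulin genes in either direction. The members' median was -1.18 with a pseudocount of 0.1, -0.97 relative to the median of genes with at least 1 FPKM in both groups (-0.12) and -0.81 with each group scaled to an equal FPKM sum, which moved the median of those genes to 0.22. That scaling turned TUBA4A to 0.12 and gave log2 ratios of the class sums of -1.26 (alpha) and -0.81 (beta). With all tubulin genes of the table these ratios were -1.61 and -1.11, against -1.62 and -1.16 for the members. The share of TUBA1B then differed by -9.35 percentage points and that of TUBB by -4.45, and the share of TUBA1C became -0.115 percentage points, against 0.055 among the members.

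For the lists of related genes, settings were added after seeing the data. Scaling to an equal sum, with the q-values kept, put 5 folding genes higher, and 7 lower and 7 higher for the ring complex. A minimum of 1 FPKM left 2 modifying enzymes higher. With a difference of at least 1 demanded, 1 other tubulin gene, 1 folding gene, 1 ring complex gene and 0 modifying enzymes were lower, with 0 higher in each, and 2 microtubule-associated genes were lower and 1 higher. Counts under the minimum difference or FPKM are smaller by construction, and for scaling the cause was not tested.

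No paired analysis was possible because the table holds no values per library. Leaving out each replicate could not be run for the same reason, so the part of any single library in these values is unknown. Depth is unknown too, and low genes such as TUBB2B and TUBA4A carry a counting error that cannot be given.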
